A study of Mus musculus with 2 samples.

Results

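Natural killer cells of mouse bone marrow were chosen by a rule on measured transcripts. A cell was kept when Ncr1, Klrb1c and Klre1 together reached 10 unique molecular identifiers (UMIs, each standing for 1 captured mRNA molecule) per 10000 UMIs of the cell, Cd79a and Cd79b together stayed under 10, and S100a8 and S100a9 together stayed under 400. The rule kept 108 of 10610 cells, 51 of 5212 in the control library and 57 of 5398 in the MCAO library. Cells carrying CD3 transcripts were kept on purpose and are described apart below. The marrow came from male wild-type mice of 8 to 10 weeks, flushed from tibias and femurs. Red cells were lysed, and the remaining marrow, labelled as all bone marrow cells, was captured in BD Rhapsody microwells. 1 library was the control and 1 came from mice with MCAO (middle cerebral artery occlusion), which models stroke by blocking a vessel that feeds the brain. The time after occlusion, the number of animals per library and the handling of the control mice are not given in the sources used here.

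Natural killer cells are innate lymphocytes that mature in the bone marrow and kill target cells without prior sensitisation. They release perforin and granzymes when signals from activating receptors outweigh those from inhibitory receptors that bind MHC class I molecules. In mice many of these receptors belong to the lectin-like Klr family, which includes the NKG2 and Ly49 receptors. Interleukin 15, sensed through Il2rb and Il2rg, keeps the cells alive, and the transcription factors Eomes and Tbx21 set their identity.

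A level below is the summed UMIs of a gene per 10000 summed UMIs of the cells described, and values in square brackets are 95% intervals (exact Poisson for levels, Clopper-Pearson for shares, exact conditional binomial for ratios). Since each condition is a single library, the conditions were compared without a test. The intervals cover counting error only, not the spread between mice, and a difference between the libraries has no replicate check. UMIs are counted at transcript ends, so levels were not scaled by length. The selected control cells held 299359 UMIs, from 389 to 21472 per cell with a median of 4453. The selected MCAO cells held 253083 UMIs, from 1402 to 19255 with a median of 3510. Transcripts of other marrow cells were found in the members of both libraries, and whether they were free RNA was not tested. S100a8, a neutrophil product, stood at 43.8 in the selected control cells and 58.1 in the selected MCAO cells, near the 46.1 and 60.4 of T cells. Hba-a1, a haemoglobin chain, stood at 3.07 and 7.15, again near the 3.60 and 7.61 of T cells. T cells here are the 65 control and 51 MCAO cells with 10 or more UMIs per 10000 of Cd3d, Cd3e and Cd3g together. They lay under the natural killer threshold and stayed within the same Cd79 and S100 limits as the members.

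The label was checked against genes that the rule did not use. Gzma, which encodes the protease granzyme A, was the gene with the largest excess over all other marrow cells, at 44.7 [42.3 to 47.2] in control and 44.5 [41.9 to 47.2] in MCAO members against 0.152 and 0.0706 in the other cells. Il2rb, a chain of the interleukin 2 and 15 receptors, was found in 48 of 51 and 56 of 57 members, at 19.1 and 19.0. Nkg7, a protein of the cytotoxic granule membrane, was found in 45 and 54 members, and in 4.60% and 5.63% of the cells with B-cell receptor transcripts, which should lack it. Those B-lineage cells were shallower, with median depths of 2004 and 2150 UMIs. The 20 genes with the largest excess over other cells also held Eomes, Prf1 (perforin), Gzmb, Ccl5, Xcl1, Samd3, the granzyme inhibitor Serpinb9 and 10 members of the Klr family, among them the rule genes Klrb1c and Klre1. Ncr1, the third rule gene, was the remaining one besides Gzma and Il2rb. All of these excesses are descriptions of cells selected on related transcripts.

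The rule genes themselves were unevenly caught. All 3 were detected in 30 control and 25 MCAO members, 2 of them in 11 and 27, and 1 in 10 and 5. Klrb1c, the NK1.1 antigen, was found in 45 and 48 members, Klre1 in 40 and 50 and Ncr1, the NKp46 receptor, in 37 and 36. Just inside the threshold, 10 control and 14 MCAO cells lay between 10.24 and 14.72 UMIs per 10000, and Nkg7 was detected in 8 and 12 of them. Just outside, 8 control and 11 MCAO cells lay between 5.413 and 9.95, and Nkg7 was detected in 7 and 9 of those. Nkg7 does not tell natural killer cells from T cells, since 69.2% and 68.6% of T cells had a UMI of it. Gzma was detected in 4 of 10 and 4 of 14 cells just inside and in 2 of 8 and 4 of 11 just outside. Cd3e was detected in 5 of 10 and 11 of 14 just inside and in 5 of 8 and 5 of 11 just outside, so many cells near the threshold carried a T-cell transcript. Of the cells past the threshold, the Cd79 limit removed 1 control cell and the S100 limit 3 control cells, and neither removed an MCAO cell.

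The share of marrow that met the rule was 0.979% [0.729 to 1.29] in control and 1.06% [0.801 to 1.37] in MCAO, a difference within counting error. With S100a8 and S100a9 together limited to under 100 the rule kept 31 and 15 cells, 0.595% and 0.278%. That limit lies near the median level of these genes together, which was 89.6 in control and 109 in MCAO members and 101 and 120 in T cells. How much of that level was free RNA was not tested. The limit kept 60.8% and 26.3% of the members and 49.2% and 25.5% of the T cells. It thus removed more MCAO than control cells in both sets, and no direction is read from it. B-lineage cells made up 21.7% of the control and 11.5% of the MCAO library. With those cells taken out of the denominator the shares were 1.25% and 1.19%. Members without a CD3 UMI made up 0.652% and 0.648%.

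The selected cells were of more than 1 kind. A UMI of Cd3d, Cd3e or Cd3g, the chains that carry the T-cell receptor signal, was found in 17 of 51 control and 22 of 57 MCAO members, and none in the other 34 and 35. Trac, the constant region of the T-cell receptor alpha chain, was found in 12 of the 17 and 17 of the 22 CD3-carrying members, against 3 of 34 and 4 of 35 without CD3. Median depth was 4218 UMIs in control and 4228 in MCAO for members with CD3, and 4640 and 3124 for those without, so the MCAO members without CD3 were the shallowest. The killing genes followed this division. Gzma was found in 29 of 34 control and 34 of 35 MCAO members without CD3, and in 4 of 17 and 3 of 22 with CD3. Prf1 was found in 25 of 34 and 28 of 35 without CD3, and in 5 of 17 and 3 of 22 with CD3.

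Some receptors and Eomes divided along the same line in both libraries, and others did not. The Ly49 receptor genes Klra4 and Klra8 were found in 11 and 11 of 34 control and in 12 and 17 of 35 MCAO members without CD3. With CD3 they were found in 0 and 1 of 17 and in 1 and 2 of 22. For 0 of 17 cells the 95% interval of the share of cells with a UMI reaches 19.5%. Ncr1 was found in 6 of 17 and 6 of 22 members with CD3 against 31 of 34 and 30 of 35 without, while Klrb1c and Klre1 did not divide this way, at 14 and 13 of 17 and 20 and 19 of 22 with CD3. Since these 3 genes chose the cells, their shares are descriptions only. Eomes was found in 21 of 34 and 23 of 35 members without CD3 and in 8 of 17 and 6 of 22 with CD3. Tbx21 did not divide this way, at 17 of 34 and 14 of 35 without CD3 and 9 of 17 and 11 of 22 with it. Klrc1 was found in 17 of 34 and 14 of 35 members without CD3 and in 11 of 17 and 12 of 22 with CD3. Klra7, another Ly49 gene, was more frequent with CD3 in control (13 of 17 against 16 of 34) and about equally frequent in MCAO (11 of 22 against 19 of 35).

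**Figure D1:**
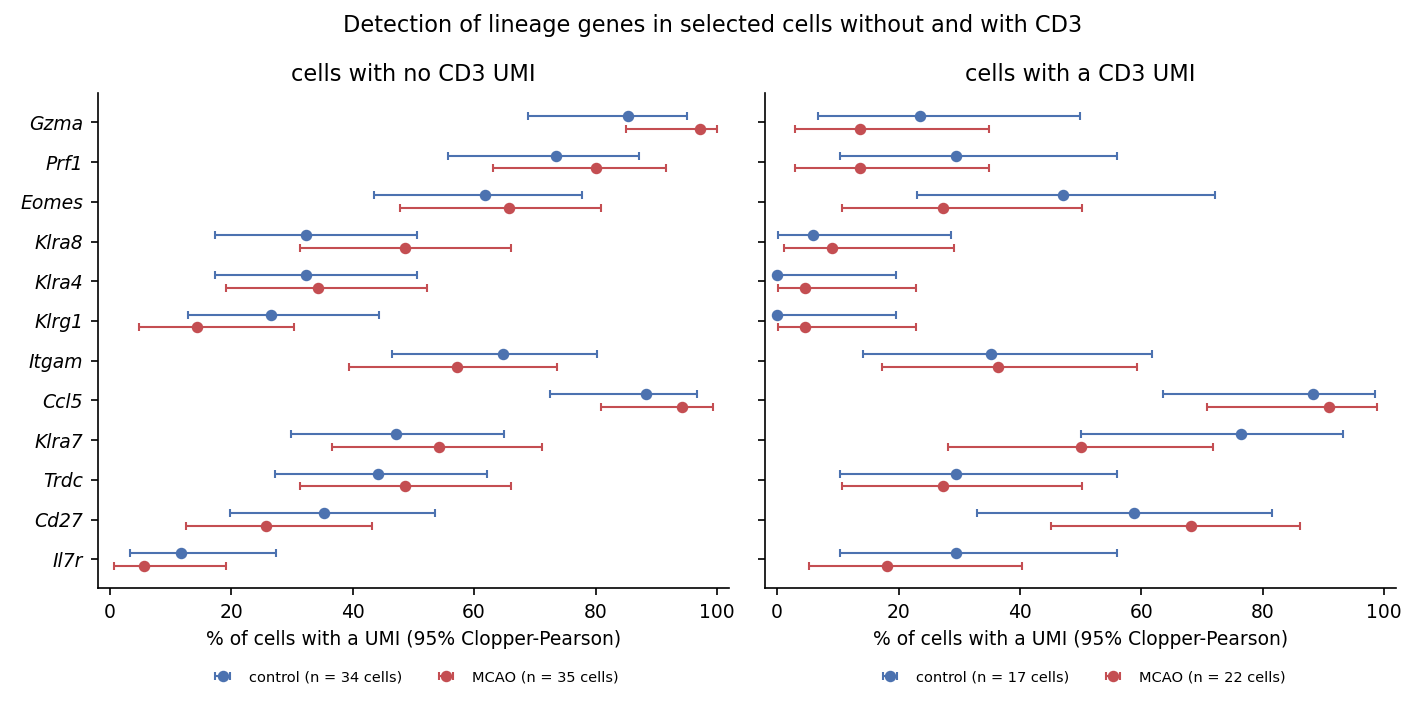
Share of selected cells with at least 1 UMI of each gene (x axis, %, with 95% Clopper-Pearson intervals) in cells without (left) and with (right) a CD3 UMI, for control (blue) and MCAO (red). Gzma was detected in 85.3% and 97.1% of cells without CD3 and in 23.5% and 13.6% of cells with CD3, while Ccl5 was common in both.

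Other genes were more frequent with CD3 or did not divide. Cd27, a costimulatory receptor of less mature natural killer cells and of T cells, was found in 10 of 17 and 15 of 22 members with CD3 and in 12 of 34 and 9 of 35 without. Ccl5, a chemokine that draws T cells and monocytes, was found in 15 of 17 and 20 of 22 with CD3 and in 30 of 34 and 33 of 35 without. Trdc, the constant region of the T-cell receptor delta chain, was found in 15 of 34 and 17 of 35 members without CD3. With CD3 it was found in 5 of 17 and 6 of 22, so its detection did not mark the CD3-carrying cells. Summed levels were higher with CD3. Trdc and the gamma chain genes Tcrg-C1, Tcrg-C2 and Tcrg-C4 summed to 9.595 and 10 with CD3, and to 1.96 and 2.68 without. The median cell went the other way in control, at 0 with CD3 and 1.74 without. In MCAO it stood at 3.99 and 0.712. The cells richest in Trdc, with 30 UMIs in control and 17 in MCAO, both carried CD3. Cd4 had 1 UMI in 1 control member and none in the MCAO members, and Cd8a was found in 4 and 7 members. Cxcr6, a receptor of tissue-resident lymphocytes, was found in 3 control and 4 MCAO members, none of which had a UMI of Eomes.

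Natural killer cells gain Itgam (CD11b) and lose Cd27 as they mature. All 4 classes of detection of these genes were present among the members without CD3. In control, 4 had Cd27 alone, 8 had both genes, 14 had Itgam alone and 8 had neither. In MCAO the numbers were 3, 6, 14 and 12. Itgam is also a myeloid transcript, so the classes are given as detection and not as stages. It was found in 22 of 34 and 20 of 35 members without CD3, but also in 19.4% and 20.7% of the shallower B-lineage cells and in 26.2% and 31.4% of T cells. Cd27 was found in 0.973% and 1.12% of B-lineage cells. Both genes were sparse, at 1.20 and 1.62 for Cd27 and 1.64 and 2.13 for Itgam over all members, so cells with neither cannot be placed. Klrg1, a receptor of the latest stage, was found in 9 of 34 and 5 of 35 members without CD3.

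**Figure D2:**
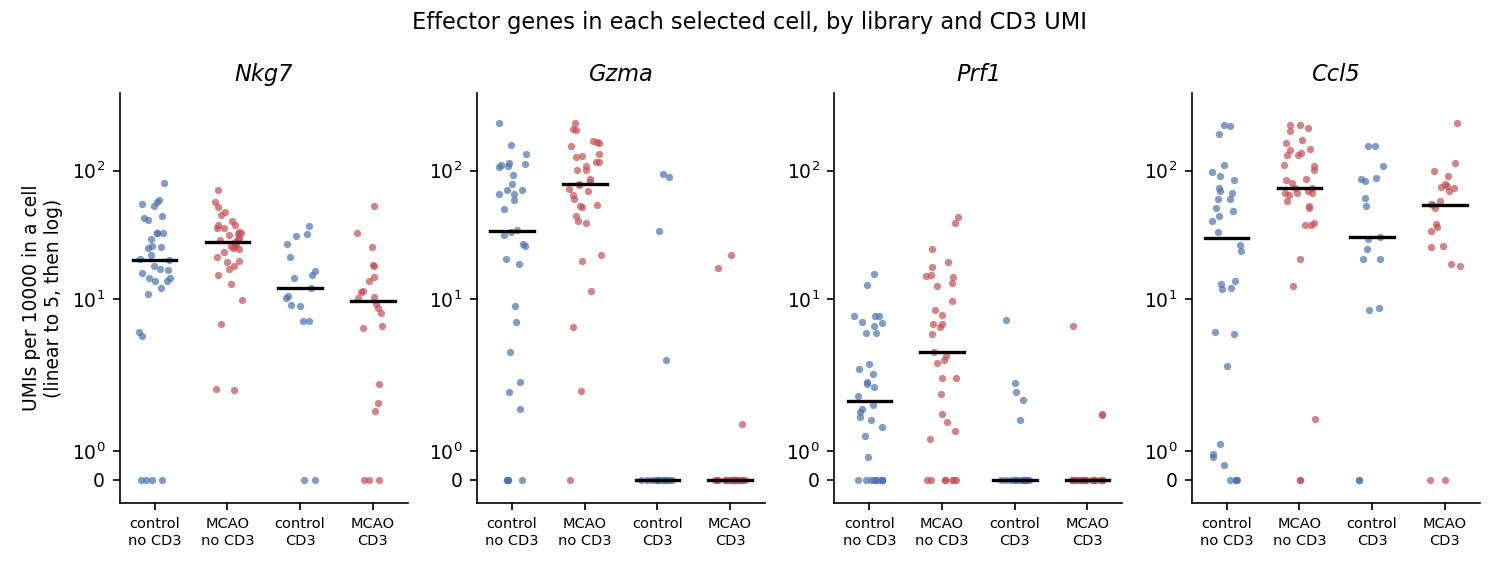
UMIs per 10000 of Nkg7, Gzma, Prf1 and Ccl5 in each selected cell (1 point per cell, black line at the median, y axis linear to 5 and logarithmic above), by library and CD3 UMI. The Gzma and Prf1 medians of cells with CD3 lie at 0 in both libraries, and the Ccl5 median of cells without CD3 lies at 29.9 in control and 73.7 in MCAO.

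Members differed widely from cell to cell within a library. Gzma ran from 0 to 234 UMIs per 10000 over the control members, with a median of 18.8, and from 0 to 235 over the MCAO members, with a median of 39.2. Nkg7 was more even, with medians of 16.8 and 19.8 and upper ends of 79.5 and 71.3. The cytotoxic granule list as a whole ran from 0 to 323 in control and from 15.7 to 408 in MCAO, and 9 control and 12 MCAO cells held 50% of its UMIs.

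The receptor repertoire was dense on chromosome 6 (mm10, placed with the GENCODE M21 annotation). The table held 28 Klr genes, all on that chromosome, and 27 had a UMI in the members. Klrg2, at chr6:38625693-38637242, had none. Most lay in the natural killer gene complex between Klrb1a (chr6:128609227-128623533) and Klra1 (chr6:130363917-130386874). The most abundant was a rule gene in each library, Klre1 at 10.5 in control (8.26 in MCAO) and Klrb1c at 9.17 in MCAO (7.05 in control). Since these genes chose the cells, their levels and rank are descriptions only. Klrd1 (CD94), the shared partner of the NKG2 receptors, was next in both, at 8.99 [7.94 to 10.1] and 8.89 [7.77 to 10.1]. Klrk1 (NKG2D), which senses stress ligands, was at 7.35 [6.41 to 8.39] and 7.67 [6.63 to 8.82]. Neither differed between the libraries beyond counting error. Reads of the near-identical Klra and Klrc copies could have been divided among them in counting, so the values of single Ly49 genes are uncertain.

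**Figure D3:**
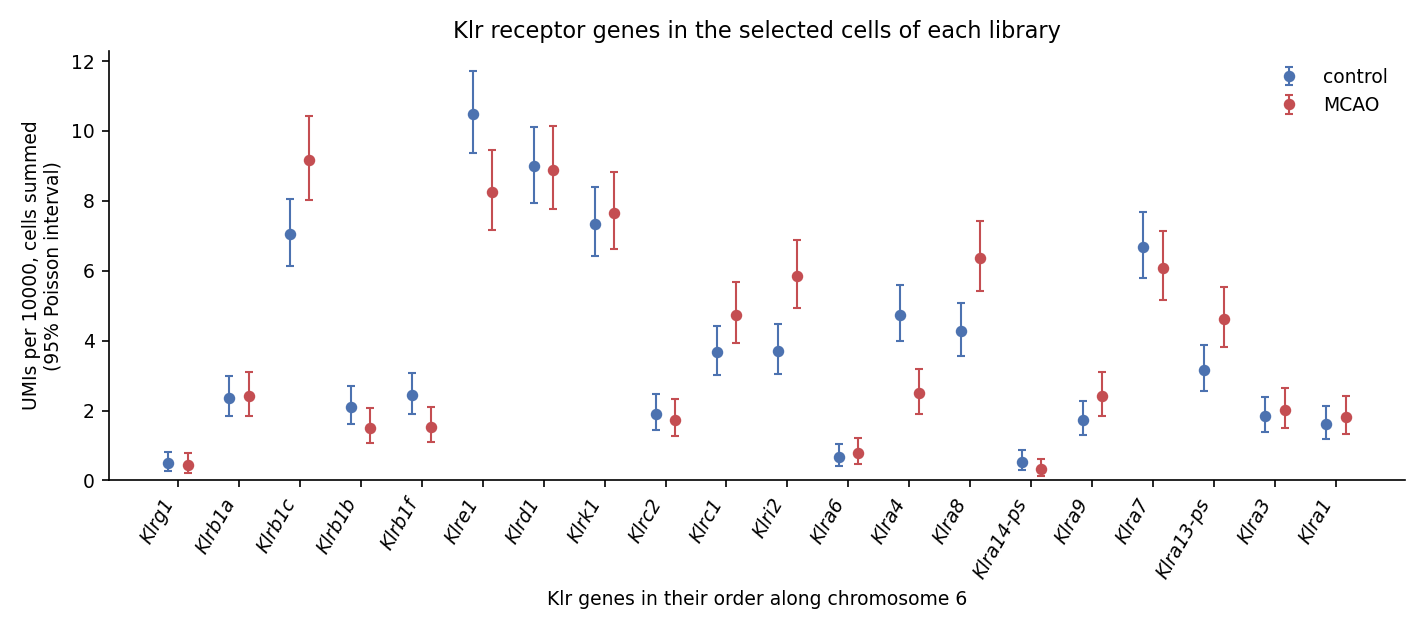
Level of each Klr gene with at least 20 UMIs in the selected cells (y axis, summed UMIs per 10000 with 95% Poisson intervals), in order along chromosome 6, for control (blue) and MCAO (red). Klrd1 and Klrk1 coincide between the libraries, Klra4 is lower in MCAO and Klra8 and Klri2 are higher.

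Some receptors of this cluster stood apart between the libraries. Klra4 (Ly49D), an activating receptor, was at 4.74 [3.995 to 5.59] in control and 2.49 [1.91 to 3.19] in MCAO, a ratio of 0.525 [0.384 to 0.711], in 11 and 13 cells. 1 control cell held 46 of the 142 control UMIs, and without the richest cell of each library the ratio was 0.480 [0.325 to 0.699]. With cells weighted alike the gap was narrower, at means of 4.058 in control and 3.085 in MCAO. Klra8 (Ly49H), an activating receptor known for binding a viral protein, was at 4.28 and 6.36, 1.49-fold higher in MCAO [1.17 to 1.89], in 12 and 19 cells. Klri2 was at 3.71 and 5.85, 1.58-fold higher [1.23 to 2.04], in 18 and 27 cells. Klra5 had 0 UMIs in control and 16 UMIs in 4 MCAO cells, and did not pass the filter described next.

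Genes entered the comparison between the libraries with 20 or more UMIs in the control and MCAO members together and detection in 10% or more of the members of either library. 5229 genes passed, with a median log2 ratio of -0.02. A gene is called below when its level differed at least 2-fold with an interval of the ratio that left out 1. This held for 378 genes (7.23% of those compared), 157 higher in MCAO (3%) and 221 lower (4.23%). These shares are the background for each list that follows. A gene with a ratio under 2-fold can have an interval that leaves out 1 and is then not called.

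The activating receptors and adaptors were balanced in sum over all members, but not within the CD3 classes. Their 19 measured genes summed to 79.2 in control and 79.8 in MCAO, a ratio of 1.01 [0.949 to 1.07]. Without CD3 the ratio was 1.13 [1.06 to 1.21] and with CD3 0.847 [0.750 to 0.956]. The list holds the rule genes Ncr1 and Klrb1c, so its sum includes values that selected the cells. All 19 passed the filter, 10 were higher and 9 lower, 3 were called higher and 1 lower. The adaptors Fcer1g and Tyrobp, which carry the signals of many of these receptors, led the list at 18.6 and 15.8 in control and 16.1 and 16.3 in MCAO. Hcst (DAP10), the adaptor of NKG2D, was called higher at 1.70 and 3.52, 2.06-fold [1.45 to 2.97]. This difference lay in the members with CD3, at 1.64 and 6.50, while members without CD3 stood at 1.73 and 1.57. Crtam and the Fc receptor gene Fcgr3 were the other called genes on the higher side, with 8 and 22 and 13 and 23 UMIs, and the Fcgr3 call held in 3 of 10 alternative settings. Cd244 (2B4), a receptor of the SLAM family, was called lower, at 1.74 and 0.711, a ratio of 0.409 [0.225 to 0.712], with 52 and 18 UMIs in 20 and 11 cells.

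The inhibitory and other MHC-binding receptors had no called gene. 12 of the 19 measured genes passed the filter, 7 higher and 5 lower, with sums of 42.7 and 44.9 and a ratio of 1.05 [0.971 to 1.14]. Klre1, a rule gene, held 314 of the 1277 control and 209 of the 1137 MCAO UMIs of the list. The sum therefore includes values that selected the cells. Without CD3 the ratio was 1.23 [1.12 to 1.36] and with CD3 0.776 [0.6725 to 0.895]. Klrc1 (NKG2A), the inhibitory partner of CD94, was at 3.68 and 4.74, a ratio of 1.29 [0.988 to 1.69]. Klra7 (Ly49G) was at 6.68 and 6.09. Pdcd1 had no UMI in either library and Havcr2 1 UMI in control.

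The cytotoxic granule and death ligand genes showed no call either, in 16 genes that passed of 19 measured, 8 higher and 8 lower. Gzma had a ratio of 0.995 [0.919 to 1.08], Gzmb of 0.961 [0.790 to 1.17], Nkg7 of 0.929 [0.825 to 1.05] and Prf1 of 1.28 [0.947 to 1.72]. The list summed to 108 in control and 105 in MCAO. Members without CD3 summed to 118 and 148, a ratio of 1.25 [1.18 to 1.33], and members with CD3 to 82.4 and 39.3, a ratio of 0.477 [0.421 to 0.541]. The second ratio rested largely on 2 of the 3 control members with a single CD3 UMI. With 2 or more CD3 UMIs required, 14 control and 22 MCAO members summed to 48.0 and 39.3, a ratio of 0.819 [0.701 to 0.957].

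Single genes and cells carried that pattern. Without CD3, Gzma was at 50.8 in control and 71.6 in MCAO, 1.41-fold [1.30 to 1.54], and the median cell went from 33.8 to 78.5. Prf1 was at 3.41 and 6.07, 1.78-fold [1.30 to 2.45]. With CD3, Gzma was at 29.5 and 3.001, but 2 control cells held 150 and 86 of the 252 control UMIs, and each had 1 CD3 UMI. With 2 or more CD3 UMIs required, Gzma had 16 and 30 UMIs and levels of 2.70 and 3.001, a ratio of 1.11 [0.588 to 2.19]. Leaving out dividing cells, which are described below, moved Prf1 over all members to 2.47 and 4.997, 2.02-fold [1.34 to 3.12] and past the limit of a call, and Gzma to 1.45-fold [1.29 to 1.64]. The ranges of single cells overlapped in each of these comparisons.

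Ccl5 was the abundant effector gene that differed most between the libraries. It stood at 32.1 [30.1 to 34.2] in control and 58.4 [55.4 to 61.4] in MCAO, 1.82-fold higher [1.68 to 1.98], under the 2-fold limit of a call. Over single control cells it ran from 0 to 225 with a median of 30.4, and over single MCAO cells from 0 to 237 with a median of 69.4. The ranges overlapped nearly in full. With each cell thinned to 1000 UMIs, Ccl5 was found in 34 of 48 control and 53 of 57 MCAO members, and 3 shallower control cells were left out. Before thinning it was found in 45 of 51 and 53 of 57.

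The Ccl5 difference was larger in members without CD3 than in those with it. Without CD3 the levels were 25.7 and 62.4, a ratio of 2.43 [2.19 to 2.70]. With CD3 they were 48.1 and 52.2, a ratio of 1.09 [0.952 to 1.24], and with 2 or more CD3 UMIs 61.3 and 52.2, a ratio of 0.851 [0.743 to 0.976]. T cells stood at 31.0 and 30.7. When the dividing cells were left out, the levels over all members were 60.5 and 80.4, and the ratio fell to 1.33 [1.22 to 1.45]. Among members without CD3 the ratio was then 1.75 [1.56 to 1.97]. Whether the ratios with and without CD3 differ between mice could not be tested with 1 library per group.

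The other effector cytokines and chemokines were sparser. Of 11 measured genes, 7 passed the filter, 6 higher and 1 lower, with 2 called higher, Ccl4 and Flt3l. Ccl4, a chemokine for monocytes and lymphocytes, was at 0.434 and 4.504, with 13 UMIs in 5 control and 114 UMIs in 7 MCAO cells, but 1 MCAO cell held 105 of the 114. Without the richest cell of each library its levels were 0.241 and 0.362, a ratio of 1.503 [0.498 to 4.75]. That 1 MCAO cell, of 4093 UMIs, also held 51 UMIs of Xcl1, 25 of Ccl3, 45 of Ccl5, 55 of Gzma, 21 of Nr4a1 and 10 of Egr1, and had no CD3 UMI and no UMI of Ifng. Xcl1, which attracts cross-presenting dendritic cells, was at 3.78 and 5.33 with it and 3.55 and 3.37 without the richest cell of each library. Flt3l, a growth factor of dendritic cells, was at 0.367 and 0.830, with 11 and 21 UMIs, and its call held in 4 of 10 alternative settings. Ifng, the signature cytokine of these cells, had 19 and 12 UMIs in 12 and 8 cells, a ratio of 0.747 [0.331 to 1.62].

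**Figure D4:**
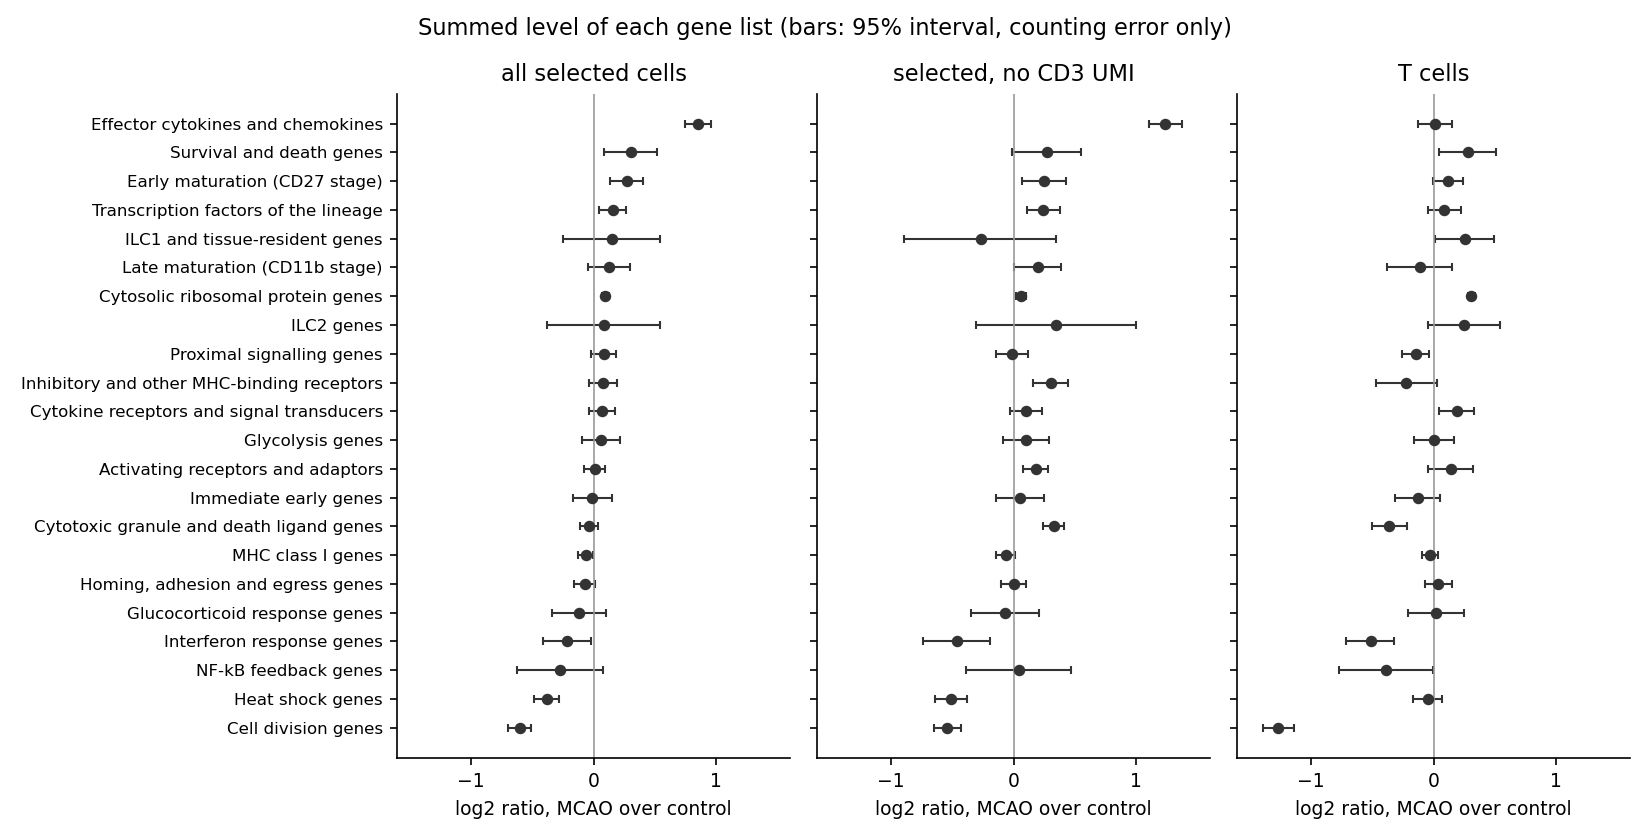
Log2 ratio of the summed level of each gene list, MCAO over control (x axis, bars are 95% intervals of counting error), in all selected cells (left), selected cells without a CD3 UMI (middle) and T cells (right). Effector cytokines and chemokines stand highest in the selected cells at 0.85 and near 0 in T cells at 0.01, and cell division genes stand lowest in all 3 panels.

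Cell division genes were lower in MCAO as a list. All 18 measured genes passed the filter and all 18 were lower, 4 of them called, with a median log2 ratio of -0.59 against -0.02 over all genes compared. The list summed to 86.5 in control and 57.0 in MCAO, a ratio of 0.659 [0.617 to 0.703]. The called genes were those of DNA replication. Mcm6, Mcm3 and Mcm2, subunits of the helicase that opens DNA, were 2.75-fold, 2.31-fold and 2.34-fold higher in control, and Pcna, the sliding clamp of DNA polymerase, was 2.37-fold higher in control [1.71 to 3.33]. Pcna stood at 4.78 and 2.02 and Mcm6 at 3.91 and 1.42. The mitotic genes differed less. Mki67 stood at 10.99 and 7.90, a ratio of 0.719 [0.6001 to 0.860], and Top2a at 12.1 and 8.69.

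The list was carried by few cells. Its median cell stood at 16.9 in control and 17.1 in MCAO, the highest at 195 and 188, and 5 control and 4 MCAO cells held 50% of its UMIs. Cells with at least 10 UMIs of Mki67 and Top2a together, a limit chosen after the data were seen, numbered 14 of 51 in control (27.5% [15.9 to 41.7]) and 7 of 57 in MCAO (12.3% [5.08 to 23.7]). The 2 intervals overlapped. These cells were deep, with median depths of 10434 and 11519 UMIs against 3098 and 3230 in the rest, so they weigh heavily in summed levels. Both Mki67 and Top2a were detected in 14 and 13 members. Thinned to 1000 UMIs per cell, Mki67 was found in 12 of 48 control and 11 of 57 MCAO members. Without the dividing cells the list's log2 ratio was 0.18, a ratio of 1.13 [0.955 to 1.34] that lies within counting error. Mki67 and Top2a belong to the list and more control than MCAO cells were removed. The loss of the difference was therefore built into this step, and no direction is read from it.

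**Figure D5:**
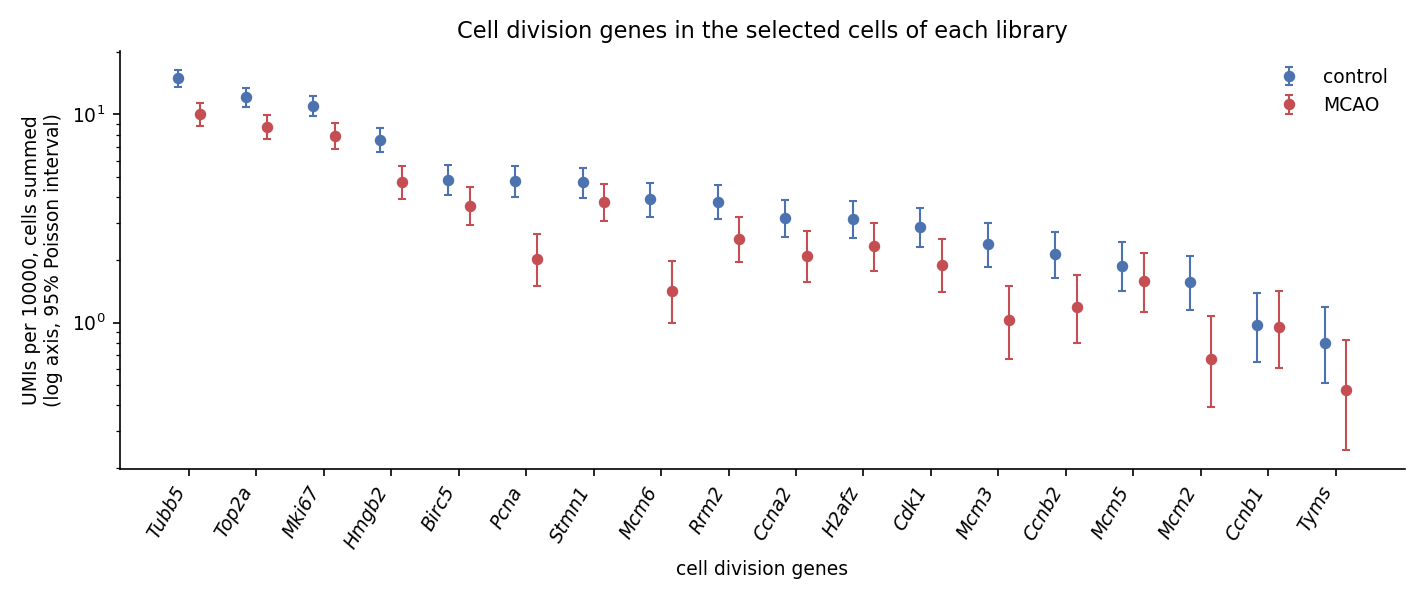
Level of each measured cell division gene in the selected cells (y axis, summed UMIs per 10000 on a log axis, with 95% Poisson intervals), control in blue and MCAO in red, ordered by control level. Every gene is lower in MCAO, and the gaps are widest for Mcm6, Mcm3, Mcm2 and Pcna.

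The list was also lower in MCAO in T cells and B-lineage cells. It summed to 83.4 in control and 34.7 in MCAO T cells, a ratio of 0.416 [0.381 to 0.454]. In B-lineage cells it summed to 52.75 and 35.4, a ratio of 0.671 [0.651 to 0.692], close to that of the members. All cells outside the rule, B-lineage and T cells included, stood at 59.1 and 61.9. Members without CD3 had a ratio of 0.688 [0.638 to 0.741] and members with CD3 of 0.7165 [0.626 to 0.8195]. With 2 or more CD3 UMIs required the latter turned to 26.3 and 40.4, a ratio of 1.54 [1.275 to 1.86]. Among all members with CD3, 1 cell in each library held at least 50% of that library's UMIs of the list (482 in control and 404 in MCAO). The MCAO cell stayed in the set under the stricter limit, so no direction is read from this ratio.

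Genes of survival and cytokine sensing held a few calls. Bcl2l11 (BIM), a promoter of cell death that is held in check by interleukin 15, was called higher at 0.635 and 1.94, 3.05-fold [1.76 to 5.49], with 19 UMIs in 12 and 49 UMIs in 25 cells. It was higher both without CD3 (0.514 and 1.57) and with CD3 (0.936 and 2.50), while T cells stood at 1.25 and 0.629. Without the dividing cells the ratio was 1.94 [1.085 to 3.63], under the limit of a call, and 1.92 [0.829 to 4.83] among members without CD3. Bcl2, the survival factor that opposes it, was at 2.44 and 3.68, 1.51-fold higher [1.10 to 2.08] and not called. Of the 6 survival and death genes that passed the filter of 10 measured, 5 were higher and 1 lower. Among cytokine receptors and their signal transducers, 14 of 20 passed, with 8 higher and 6 lower. Il10ra (34 and 12 UMIs) and Jak3 (20 and 3 UMIs), the kinase of the shared gamma chain, were called lower, while Il2rb, Il2rg and Jak1 had ratios of 0.995, 1.11 and 1.05.

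The transcription factors of the lineage had no call in 18 genes that passed. Eomes was at 4.04 and 3.79, Tbx21 at 2.07 and 1.94 and Id2, which guards innate lymphocyte identity, at 15.5 and 15.1, each within counting error. Runx3 and Irf8, both needed for maturation, were higher at 1.57-fold [1.15 to 2.16] and 1.55-fold [1.13 to 2.13]. In this list 12 genes were higher and 6 lower. The early maturation list had 8 genes higher and 2 lower, none called, led by Thy1 at 8.72 and 11.5. This list was not particular to members without CD3. It summed to 45.2 in control and 48.6 in MCAO with CD3, and to 25.8 and 30.6 without. The late maturation list had 4 higher and 5 lower, none called.

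Homing, adhesion and egress genes were also without a call, 7 higher and 9 lower of the 16 that passed. Ccr2, the receptor for monocyte chemoattractants, was at 12.9 and 9.76, a ratio of 0.759 [0.644 to 0.893]. Cxcr4, which holds cells in the marrow, was at 3.74 and 2.45, a ratio of 0.655 [0.472 to 0.901]. S1pr5, a receptor for exit from the marrow, had 21 and 13 UMIs, a ratio of 0.732 [0.337 to 1.53].

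Stress and interferon programmes were modest. Of the 7 heat shock genes that passed, 6 were lower and none was called. Hsp90ab1, a constitutive chaperone, was at 40.4 and 30.4, a ratio of 0.752 [0.686 to 0.824], and the list's ratio was 0.766 [0.712 to 0.824] in the members against 0.967 [0.891 to 1.05] in T cells. Of the 14 interferon response genes that passed, 9 were lower and 5 higher, and Gbp2 alone was called, higher, with 14 and 25 UMIs, a call that held in 3 of 10 alternative settings. MHC class I genes held no call in 13, with sums of 160 and 153. Among the glucocorticoid response genes, Txnip was called higher (34 and 58 UMIs) and Sgk1 lower (24 and 6 UMIs), with 4 higher and 4 lower of the 8 that passed. Immediate early genes were 5 higher and 5 lower, with Egr1 called higher at 16 and 28 UMIs, 10 of the latter in the cell rich in Ccl4.

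The remaining lists showed small differences. Cytosolic ribosomal protein genes summed to 636 and 680, and 33 of the 63 that passed were higher and 30 lower, with 1 called. Glycolysis genes were 6 higher and 5 lower with no call, and proximal signalling genes 7 higher and 9 lower with no call. The lists of ILC1 and ILC2 genes, which mark related innate lymphocytes, had only 4 and 2 genes past the filter. NF-kB feedback genes were 2 higher and 3 lower.

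The largest ratios among all genes compared rested on few molecules. On the higher side the 12 leading genes were Ccl4, Nob1, Crbn, Rabif, Dscr3, Trio, Usp42, Snx10, Qsox1, Bad, Ubr7 and Tnfsf14. Apart from Ccl4 they had 4 to 7 UMIs in control and 16 to 27 in MCAO. Bad, a promoter of cell death, had 7 and 25 UMIs, a ratio of 4.22 [1.78 to 11.6], and Tnfsf14 (LIGHT), a cytokine of activated lymphocytes, had 7 and 24, a ratio of 4.06 [1.70 to 11.2]. On the lower side the leading genes reported here were Scrib, Vpreb3, Slc10a3, Mrps7, Emc3, Hist1h4i, Tgif1, Scly, Stn1, Ufd1 and Atp6v0d1, with 18 to 33 UMIs in control and 2 to 4 in MCAO. Vpreb3 encodes a B-lineage protein, and 1 control member held 18 of its 33 control UMIs.

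Markers of other marrow cells were read in full. The 12 neutrophil markers summed to 138 and 173 in the members and to 151 and 174 in T cells, and every member had a UMI of at least 1 of them. The 10 B-lineage markers summed to 5.35 and 2.09, with 1 control member at 193 UMIs per 10000. The erythroid markers had a median cell of 13.2 and 19.2. No member had a UMI of a platelet marker. The basophil marker Fcer1a and the dendritic marker Clec9a were at 0 in both libraries, but other genes of their lists were detected. A basophil or mast cell marker was found in 17 of 51 control and 14 of 57 MCAO members. A conventional dendritic marker was found in 39 of 51 and 42 of 57. Monocyte or macrophage markers summed to 24.42 and 24.97 in the members. Plasmacytoid dendritic markers summed to 2.539 and 2.371, and progenitor markers to 3.875 and 5.453. The T-cell markers summed to 16.5 and 23.6, against 98.5 and 92.8 in T cells. Their part in the differences between the libraries was not tested.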

How the data were processed

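The deposited table holds natural log values, ln(1 + UMIs per 10000 UMIs of the cell), a scale inferred here because the back-transformed entries add up to 10000 in each cell. Per the submitters' processing notes, fastp, STAR, UMI-tools, Seurat 4.0.6 and build mm10 were used. Filters on cells and the annotation are not given in the sources used here. From their steps, 100% of the 19373615 nonzero entries came out as whole UMIs (tolerance 0.01). Columns were assigned to libraries by their prefixes, Mandarin for control and for stroke. Cell codes are running numbers, and 5120 occur in both libraries, so shared barcodes could not be counted. No cells were filtered further and no doublet caller was run.

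Members were found by the rule in Python 3.11.15 with numpy 2.4.6, scipy 1.17.1 and pandas 2.3.3. Levels are summed UMIs per 10000, and log2 ratios use a pseudocount of 0.02 per 10000. Counts of 0 were read against a floor of 3 UMIs. The ratio, its interval and the call were tested on simulated Poisson counts summed per library, which hold no spread between cells. The detection filter was not part of that test. The members, the 22 gene lists and the 13 marker lists were chosen with earlier results of these data known. Named are the 12 highest and 12 lowest ratios, the 20 genes most in excess over other cells, natural killer and T-cell markers and, per list, up to 8 abundant members and 4 furthest from 0; haemoglobin genes, receptor segments and gene models were not ranked. Genes named outside this rule (for example Klra5, Klrg2, Pdcd1 and Havcr2) were chosen after their values were seen. Gene positions come from GENCODE M21. Some genes that this rule names are not reported here.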

Additional observations from a re-analysis of the deposited data

How the results depend on the processing

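Each result was recomputed under the alternatives fixed for it and under others chosen after seeing the data (without dividing cells, 2 or more CD3 UMIs for the CD3 class, list sums with cells weighted alike, and without the cell richest in a gene). The difference in natural killer share (0.0774 percentage points) ranged from -0.150 to 0.177 over 8 alternatives, each within its counting error. It was -0.317 with S100a8+S100a9 under 100, a limit near the median level of the members. No paired analysis was possible because each group has 1 library, and none could be left out. Genes past 2-fold (157 higher, 221 lower) numbered 26 and 36 with cells thinned to 1000 UMIs and 372 and 370 with no filter, and the lower ones 140 at a cut of 20 and 123 without dividing cells. Without CD3 cells the log2 ratios of summed lists were 0.18 (activating receptors), 0.30 (inhibitory), 0.33 (cytotoxic) and 1.24 (effector). With S100a8+S100a9 under 100 they were -0.095 (activating), -0.19 (cytotoxic), 0.74 (effector) and -0.39 (division), and interferon response and MHC class I genes reversed to 0.18 and 0.16. Thinned they were 0.11 (activating), -0.10 (inhibitory), 0.18 (cytotoxic) and 0.64 (effector). With cells weighted alike they were 0.25 (cytotoxic) and 0.67 (effector). Without dividing cells they were 0.20 and 0.49, and division changed sign to 0.18, within counting error. At a cut of 20, division was -1.12. Called genes reversed at a cut of 20 (Ccl4 -0.97, Egr1 -0.48), without CD3 cells (Hcst -0.14), with S100a8+S100a9 under 100 (Qsox1 -3.07, Tnfsf14 -2.57) and thinned (Crtam -0.24, Rpl7a -0.24, Ubr7 -0.22). The cause was not tested. Calls held in 3 of 10 settings for Gbp2 and Fcgr3, 4 for Flt3l and 5 for Egr1, Il10ra and Txnip. Of 2630 recomputed gene ratios, 2350 stayed in the interval of the reported value. Genes under about 20 UMIs cannot be placed at this depth.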
